A study of Mus musculus with 35 samples.

Results

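Open chromatin of mouse hepatocytes was examined at the regions that lie in ERVK and ERV1 repeats. These were the rows of the deposited table of merged ATAC-seq regions whose detailed annotation names the repeat family ERVK or ERV1, and no signal value entered that choice. The rule gave 5215 of 177904 regions (2.93%), of which 3901 (74.8%) lay in ERVK and 1314 (25.2%) in ERV1 repeats, under 334 repeat names. The family was marked with a question mark in the annotation for 47 of them.

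The data came from mice that carried implanted tumors or had received PBS, and addressed how cancer cachexia, the wasting of body tissue in cancer, goes along with chromatin changes in the liver. Hepatocyte nuclei were captured on beads by the INTACT method, in which the CAG-Sun1/sfGFP transgene puts a fluorescent tag on the nuclear envelope and Albumin-Cre switches it on in hepatocytes. All 9 groups carried both transgenes, and each of the 35 libraries came from an animal of its own. Livers were taken at ZT 9, and the C26 and 8025 cachexia groups had lost more than 10% of body weight. BALB/c mice formed the groups with C26 cachexia, C26 pre-cachexia and C26 PBS, and with the NC26 weight-stable tumor and NC26 PBS. C57BL/6N mice formed the groups with 8025 cachexia and 8025 PBS, and with the MC38 weight-stable tumor and MC38 PBS. Each group held 4 animals except 8025 PBS with 3. Strain, tumor line and PBS cohort went together, so a tumor was compared with the PBS group of its own cohort.

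Endogenous retroviruses are remnants of retroviral infections of the germ line. An intact copy has internal genes between a pair of long terminal repeats (LTRs), and recombination often leaves a solitary LTR, which keeps the viral promoter and enhancer motifs. ERV1 covers gamma-retroviruses such as murine leukemia virus (MLV) and the VL30 elements, and ERVK covers beta-retroviruses such as intracisternal A-particles (IAP) and the ETn and MusD elements. In most adult cells these copies are held silent by KRAB zinc finger proteins, which recruit KAP1 (Trim28) and the H3K9 methyltransferase Setdb1, and by DNA methylation. IAP and ETn elements still insert into the germ line of inbred mice, so that strains differ in which copies they carry.

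A few of these regions coincided with the start of an annotated gene. In the RefSeq table of 32815 promoter windows (GRCm38.p6, 250 bases before to 50 after a start site), 26 windows overlapped a total of 30 ERVK or ERV1 regions by at least 150 bases. The 26 windows held a median of 4 CG dinucleotides, against 7 over all windows. The sequences of 5 of them are shown in the direction of transcription. Regions at Gm30843, Gm34653 and Gm39760 were called in both cachexias, and those at H3f3c and Gm30536 between the strains in PBS. Regions at Gm39745, Gm41005, Gm52192 and Gm16008 were also called between the strains in PBS, and their windows are not shown. The 5 were chosen after their values were seen. Capitals mark motifs searched on both strands: the TATA box as TATAAA, the CCAAT box, the AP-1 motif TGACTCA, the FOXA motif TGTTTAC, the HNF4 motif CAAAGTCCA and the STAT motif TTCNNNGAA. The same motif on the other strand is printed as its reverse complement, and CCAAT matches overlap at 1 place.
Gm30843, RLTR48A (ERV1), chr6:141875820-141876119, plus strand: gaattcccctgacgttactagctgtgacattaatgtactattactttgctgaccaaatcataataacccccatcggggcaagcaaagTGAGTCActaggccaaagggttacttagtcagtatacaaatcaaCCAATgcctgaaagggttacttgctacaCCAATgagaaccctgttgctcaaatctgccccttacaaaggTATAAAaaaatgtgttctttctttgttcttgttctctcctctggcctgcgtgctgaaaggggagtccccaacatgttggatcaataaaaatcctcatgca
Gm34653, IAP-d-int (ERVK), chr2:34832757-34833056, plus strand: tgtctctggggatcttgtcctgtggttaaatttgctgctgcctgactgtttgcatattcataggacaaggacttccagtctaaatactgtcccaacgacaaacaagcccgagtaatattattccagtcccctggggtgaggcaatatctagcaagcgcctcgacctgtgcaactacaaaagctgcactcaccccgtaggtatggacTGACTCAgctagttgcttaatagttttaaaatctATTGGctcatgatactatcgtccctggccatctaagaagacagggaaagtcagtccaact
Gm39760, RLTR20C1_MM (ERVK), chr2:11694566-11694865, minus strand: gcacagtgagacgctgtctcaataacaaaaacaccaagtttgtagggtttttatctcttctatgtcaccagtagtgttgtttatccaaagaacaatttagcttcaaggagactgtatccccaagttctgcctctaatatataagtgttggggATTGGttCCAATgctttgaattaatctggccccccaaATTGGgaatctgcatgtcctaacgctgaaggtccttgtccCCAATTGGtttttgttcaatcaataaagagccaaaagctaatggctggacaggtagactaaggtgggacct
H3f3c, RLTR13D3A1 (ERVK), chr2:119666103-119666402, minus strand: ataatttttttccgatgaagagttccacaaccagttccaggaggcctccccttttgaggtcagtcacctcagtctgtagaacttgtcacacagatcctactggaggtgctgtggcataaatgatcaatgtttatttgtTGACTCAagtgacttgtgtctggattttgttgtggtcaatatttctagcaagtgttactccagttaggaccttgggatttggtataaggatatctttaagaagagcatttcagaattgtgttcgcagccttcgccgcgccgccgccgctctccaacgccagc
Gm30536, MLTR73 (ERVK), chr2:166194173-166194472, plus strand: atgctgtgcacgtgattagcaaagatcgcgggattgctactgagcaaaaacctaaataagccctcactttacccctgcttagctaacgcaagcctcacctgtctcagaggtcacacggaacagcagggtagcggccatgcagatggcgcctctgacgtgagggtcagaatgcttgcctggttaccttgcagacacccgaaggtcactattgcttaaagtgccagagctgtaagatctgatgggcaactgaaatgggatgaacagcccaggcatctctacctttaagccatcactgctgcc
TATAAA was present in 6 of the 26 windows and in 13.6% of all promoter windows, and CCAAT in 10 of 26 and in 37.4%. The FOXA motif was in 6 of 26 and in 3.65%, the AP-1 motif in 4 of 26 and in 5.2%, and the STAT motif in 4 of 26 and in 8.29%. The HNF4 motif was in 0 of 26 and in 0.475% of all windows. A match describes letters in the reference sequence and not a bound site.

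Signal is given as scaled tags, the read tags in 400 bp per 10 M tags of a library, as deposited. Differences are log2 values of limma-trend on log2(scaled tags + 1) with their standard error (SE), and a region was called when its p, adjusted by Benjamini-Hochberg over all 176957 regions tested, was below 0.05. A low-signal filter kept 5147 of the 5215 ERVK and ERV1 regions and removed 68. NC26 tumor replicate 1 held 3.47 M tags, and the other libraries 11.3 to 23.8 M. Library names fell into a series A and a series B. All C26 libraries were of series A, all 8025 libraries of series B, and NC26 and MC38 had replicates 1 and 2 in A and 3 and 4 in B. Of 8 hepatocyte marker genes, 7 had a region within 1 kb of their start, with a median signal of 131, whereas 1 of 5 macrophage markers had such a region, at 3.56. For leukocyte markers it was 1 of 4, at 5.98, for endothelial markers 1 of 4, at 8.62, for stellate cell markers 3 of 4, with a median of 15.2, and for cholangiocyte markers 2 of 4, with a median of 33.1.

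ERVK and ERV1 regions were weaker and farther from genes than the table as a whole. Their median signal over the 35 libraries was 7.47 scaled tags, against 10.9 over all regions, and 6.14% of them had a mean of 50 or more, against 14.2% of all regions. Of the 5215 regions, 3455 (66.3%) were intergenic and 1760 (33.7%) intronic, against 33.8% and 46.2% of all regions. The median distance to a start site was 23.6 kb, against 15.1 kb over all regions. Parts of the internal sequence of a provirus made up 874 of them (16.8%), and the others lay in LTRs. Of the 5215, 525 had a peak in each of the 35 libraries (10.1%, against 17.1% of all regions). A peak in 1 library was recorded for 1246 (23.9%, against 21.6%). Among regions recorded in at least 3 libraries, 183 had peaks only in BALB/c and 272 only in C57BL/6N libraries. BALB/c had 20 libraries and C57BL/6N 15, and such peaks were not counted over all regions. Neither count is therefore a result about these repeats.

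The 6 ERVK and ERV1 regions with the highest signal are given first. An RMER20C_Mm LTR in an intron of Lrpprc, which encodes a mitochondrial RNA-binding protein, had a mean of 221 scaled tags over all libraries. An RLTR20C2_MM LTR near Apol8 had 182, an LTRIS_Mus LTR near Nrn1 179.8, and an intronic RMER13A1 LTR annotated to Gnb4 174. An RMER19B LTR near Tlr2, a receptor of bacterial lipoproteins, had 169.8, and an RLTR13D3A1 LTR near Mroh2a 169. The Gnb4 region was lower in 8025 cachexia, with 116, 128, 127 and 145 scaled tags, than in 8025 PBS, with 181, 231 and 174 (log2 difference -0.63, SE 0.13, adjusted p = 0.00069). It was also lower in C26 cachexia (log2 difference -0.36, SE 0.12, adjusted p = 0.035). The Nrn1 region was higher in C26 cachexia, with 187, 195.7, 163.0 and 177 scaled tags, than in C26 PBS, with 123, 195.7, 129 and 121 (log2 difference 0.33, SE 0.09, adjusted p = 0.0047), and the libraries of the groups overlapped. The Tlr2 region was called in neither cachexia but was higher in C26 pre-cachexia than in C26 PBS (0.41, SE 0.1, adjusted p = 0.016). Between BALB/c and C57BL/6N PBS livers, the log2 difference was -0.28 at the Nrn1 region (adjusted p = 0.0039) and -0.34 at the Tlr2 region (adjusted p = 0.0015). The Lrpprc, Apol8 and Mroh2a regions were not called in either cachexia, in pre-cachexia or between the strains in PBS.

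BALB/c and C57BL/6N livers differed at many of these repeats without any tumor. Among PBS animals, 495 regions were higher and 514 lower in BALB/c (8 libraries) than in C57BL/6N (7 libraries), 19.6% of the 5147 tested, beside 13.5% of all regions. By direction, the share over all regions was 6.41% higher and 7.06% lower. ERV1 had 107 higher and 175 lower, and ERVK 388 higher and 339 lower. For comparison, 15.3% of regions in ERVL repeats and 16% of those in the related ERVL-MaLR repeats were called. Within library series A alone 457 ERVK and ERV1 regions were called, and within series B alone 562. Signal of the strains did not overlap for 151 regions higher and 244 lower in BALB/c, 7.67% of those tested, against 4.03% of all regions (1.55% higher and 2.48% lower). Reads of both strains had been aligned to mm10, which derives from C57BL/6J, and the part of alignment in the strain difference was not tested.

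The strain difference recurred in libraries that share no animal with the PBS groups. NC26 tumor livers (BALB/c) differed from MC38 tumor livers (C57BL/6N) at 363 higher and 560 lower regions, 17.9% of those tested, beside 12.3% of all regions (4.83% higher and 7.43% lower). Within series A alone 406 were called and within series B alone 510. Of the calls among PBS animals, 578 were called in the same direction in the tumor groups and 1 in the opposite direction. That is 57.3% of the PBS calls and 62.6% of the tumor calls, against 47.7% and 52.4% for all other regions. Tumor line and strain cannot be told apart in the tumor groups. In contrast, the BALB/c PBS cohorts C26 and NC26 differed at 0 regions (264 at an unadjusted p below 0.05, 0 by edgeR and 0 by DESeq2), with 0% of all regions called. The C57BL/6N PBS cohorts 8025 and MC38 also differed at 0 (223 unadjusted, 0 by edgeR and 1 by DESeq2), with 0% of all regions called.

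**Figure D1:**
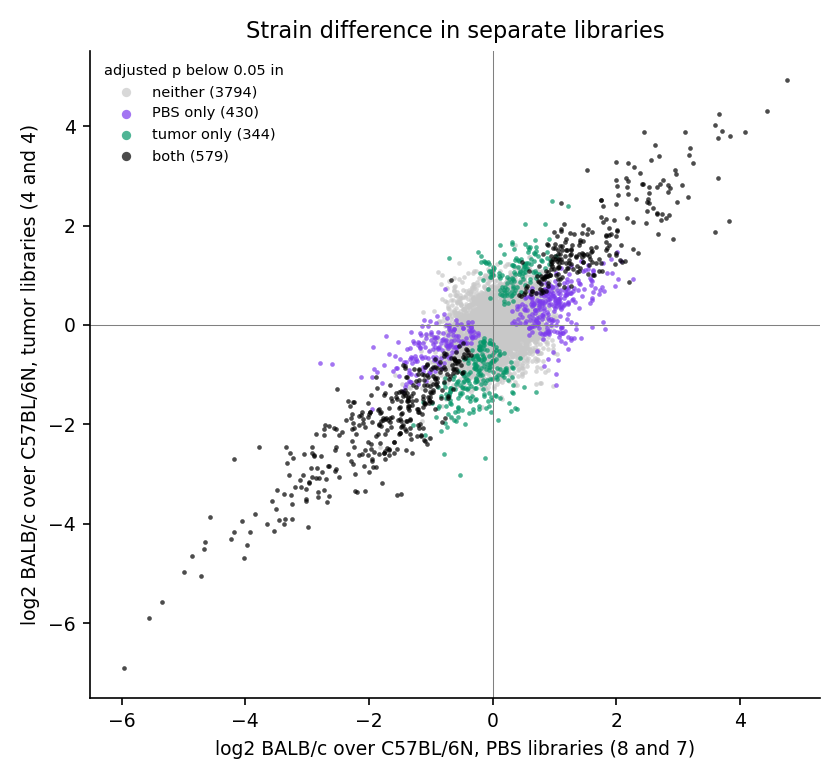
Each point is a tested ERVK or ERV1 region. The x axis gives its log2 strain difference among PBS animals and the y axis that between NC26 and MC38 tumor livers, with BALB/c minus C57BL/6N on both. Colors mark where a region was called: 579 in both comparisons, 430 among PBS animals only, 344 among tumor groups only and 3794 in neither.

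The largest falls in BALB/c were near losses of the whole signal. An RLTR20B3A_MM LTR lay 2882 bp upstream of the start of Fgl1, a liver-secreted fibrinogen-like protein and ligand of the immune checkpoint receptor LAG3, at chr8:41217838-41218238 (mm10). Its lowest, median and highest values were 0, 0.50 and 1.92 scaled tags in BALB/c PBS livers, against 67.4, 115 and 149.5 in C57BL/6N PBS livers. Every C57BL/6N library was far above every BALB/c library. A lack of overlap among PBS libraries was a condition for all strain regions named here. The means were 0.694 ± 0.716 (SD, n = 8) in BALB/c and 116 ± 25.8 (SD, n = 7) in C57BL/6N, 168-fold lower in BALB/c (log2 difference -5.97). The tumor groups showed it too, with 0.478 ± 0.955 in NC26 tumor and 166 ± 30.8 in MC38 tumor livers (SD, n = 4 each, log2 difference -6.91). The next region on the gene's far side, 1423 bp away, was likewise low in BALB/c, with 1.53 against 115 scaled tags in C57BL/6N (log2 difference -5.43). The next region toward the gene had 11.5 in BALB/c and 19.96 in C57BL/6N (log2 difference -0.50, adjusted p = 0.25). The Fgl1 promoter region itself had 11.8 ± 2.62 in BALB/c and 18.3 ± 5.99 in C57BL/6N (SD, log2 difference -0.32, SE 0.2, adjusted p = 0.34).

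At 4 of the 8 named regions lower in BALB/c, all 8 BALB/c PBS libraries were at 0. A floor of 3 read ends over the group, 0.12 scaled tags, bounds these differences. An RLTR1D LTR of the MLV-related group in intron 2 of Skint6, a member of an epithelial T-cell selection family, was at 0 in BALB/c and at 47.6 ± 15.2 in C57BL/6N (SD, n = 7), at least 394-fold lower in BALB/c. In C57BL/6N its lowest, median and highest values were 30.0, 43.9 and 69.2 scaled tags. The next regions on either side were also at 0 in all BALB/c PBS libraries, including 1 on an exon of Skint6, with 3.07 and 4.88 in C57BL/6N. An RMER19B LTR upstream of Cyp4f18, a fatty acid hydroxylase gene, was at 0 in BALB/c and at 30.8 ± 4.17 in C57BL/6N (at least 255-fold lower). An internal MLV-type fragment (RLTR4_MM-int) upstream of Pik3c3 was at 0 in BALB/c and at 25 ± 5.67 in C57BL/6N (at least 207-fold lower). The Pik3c3 promoter region had 102 in BALB/c and 107 in C57BL/6N. The fourth was a MYSERV16_I-int fragment in another intron of the Skint6 transcript, annotated to Skint10, with 18.8 ± 6.69 in C57BL/6N (at least 156-fold lower). The Cyp4f18, Pik3c3 and Skint10 regions had 0 read ends in all 20 BALB/c libraries, while the Skint6 region had 2 read ends. Neighboring regions had log2 differences of -2.22 and 0.38 at Pik3c3 and of -3.18 and -0.68 at Skint10. At Cyp4f18 the neighbor tested, 60572 bp away, had 0.33.

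The other 4 were not at 0 throughout BALB/c. An intronic RLTR44B LTR annotated to Nek5 had a lowest, median and highest value of 0, 0.71 and 2.13 scaled tags in BALB/c PBS livers, against 30.9, 55.5 and 75.4 in C57BL/6N PBS livers (67.2-fold lower, log2 difference -4.86). The MERV1_LTR near Snai2, which encodes a repressor of epithelial genes, had 0, 0.32 and 1.28 in BALB/c and 21.5, 32.7 and 41.8 in C57BL/6N (75.5-fold lower). The RLTR20A2 LTR near Adcy2, an adenylate cyclase gene, had 0, 1.78 and 3.85 in BALB/c and 22.6, 27.2 and 56.6 in C57BL/6N (18.3-fold lower, with no overlap at any of the 3 regions). The promoter region of Adcy2 was lower as well, with 2.82 ± 1.32 in BALB/c and 15.04 ± 4.39 in C57BL/6N (SD, log2 difference -2.26, adjusted p = 3.4e-07). Promoter regions of Nek5 and Snai2 differed by 0.04 and 0.03 on the log2 scale and were not called (adjusted p = 0.96 and 0.91). Neighboring regions had log2 differences of -1.41 and -2.07 at Adcy2 and of -0.48 and -1.84 at Nek5. At Snai2 the neighbor tested, 48780 bp away, had -0.16. In series A alone the Adcy2 region was no longer called between the tumor groups, nor was the Scgb2b21 region described next.

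Other repeats were open in BALB/c livers and near 0 in C57BL/6N livers. The largest log2 difference was at an LTRIS_Mus LTR (ERV1) in intergenic sequence annotated to Grin3a, at chr4:50346695-50347095 (mm10). It had a lowest, median and highest value of 62.3, 96.7 and 114 scaled tags in BALB/c PBS livers, against 0.88, 2.06 and 5.61 in C57BL/6N PBS livers. The lowest BALB/c library was above the highest C57BL/6N library by a wide margin, where the choice of regions required no overlap. The means were 92.8 ± 17.4 (SD, n = 8) in BALB/c and 2.86 ± 1.74 (SD, n = 7) in C57BL/6N, 32.5-fold higher in BALB/c (log2 difference 4.76, 4.93 between the tumor groups). The neighboring regions were higher by 1.96 and 1.89 on the log2 scale.

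The other named regions had smaller log2 differences. An RLTR26C_MM LTR annotated to 4930503E24Rik averaged 32.8 ± 8.91 in BALB/c and 1.09 ± 0.658 in C57BL/6N (SD, 30.1-fold higher). An LTR48B LTR near Col17a1, which encodes a collagen of epithelial junctions, averaged 39.8 ± 11.7 in BALB/c and 1.76 ± 0.766 in C57BL/6N (22.6-fold higher). An RMER19B LTR annotated to 4930557J02Rik averaged 68.0 ± 11.6 in BALB/c and 4.44 ± 1.73 in C57BL/6N (15.3-fold higher). These 3 regions had log2 differences of 4.44, 4.08 and 3.84 among PBS animals, and 4.31, 3.88 and 3.80 between the tumor groups. Among PBS animals their neighboring regions had 0.79 and 1.02 at 4930503E24Rik, 3.05 and 2.58 at Col17a1, and 2.37 and 4.16 at 4930557J02Rik. The RMER6B LTR in intron 2 of Pak6, a kinase gene, had 35 ± 10.46 in BALB/c and 1.88 ± 1.24 in C57BL/6N, and the promoter region of Pak6 rose with it (40.4 ± 14.7 against 4.81 ± 1.54, log2 difference 2.85, SE 0.24, adjusted p = 5.2e-13). The RLTR14-int fragment annotated to Zfp746, the RLTR40 LTR near Erdr1 and the ERVB7_1-LTR_MM annotated to Scgb2b21 had 20.2, 17.5 and 17.5 in BALB/c, against 0.841, 0.461 and 0.921 in C57BL/6N. The promoter region of Zfp746 was not called (log2 difference 0.07, adjusted p = 0.68). Neighboring regions had log2 differences of 2.29 and 1.53 at Pak6, 1.45 and 1.77 at Zfp746, and 3.35 and 4.13 at Erdr1. At Scgb2b21 the neighbors lay 1475480 and 529053 bp away and had 0.63 and 0.2 (adjusted p = 0.31 and 0.75).

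**Figure D2:**
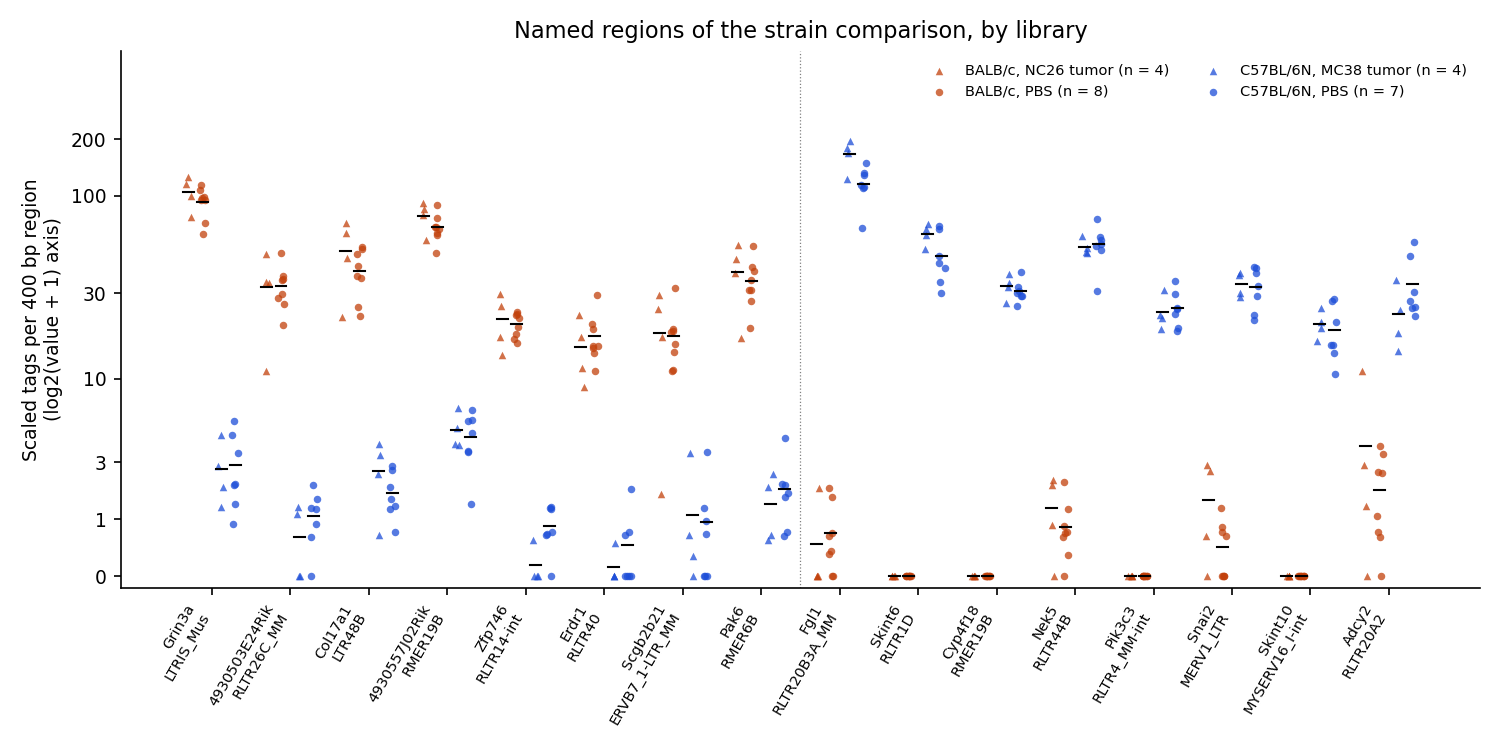
Scaled tags per 400 bp region (log2(value + 1) axis) of the 16 named strain regions in single libraries, with BALB/c in red to the left of C57BL/6N in blue at each region. Triangles are the NC26 or MC38 tumor libraries, circles the PBS libraries and black lines the group means. The 8 regions left of the dotted line were higher and the 8 right of it lower in BALB/c, and the PBS libraries of the strains do not overlap, as the choice of regions required.

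Losses of the whole signal were counted in both strains. At 12 ERVK and ERV1 regions all 8 BALB/c PBS libraries were at 0 while every C57BL/6N PBS library had 5 or more scaled tags, beside 0.0377% of all regions, and 9 of the 12 were at 0 in all 20 BALB/c libraries. The converse was true of 0 regions, beside 0.00112% of all regions. Reads of both strains had been aligned to mm10, which derives from C57BL/6J. A copy absent from mm10 could not form a region, so the counts of the strains are not a like comparison. The part of alignment in them was not tested. With a limit of under 2 in place of 0, the counts were 18 for BALB/c (0.345% of ERVK and ERV1 regions, against 0.0898% of the others and 0.0972% of all regions) and 8 for C57BL/6N (0.153%, against 0.0492% of the others and 0.0523% of all). The 18 held 5 MLV or GLN regions, 3 of which overlap each other at Skint6 and are among the 12 at 0. They also held 2 MuRRS regions, which overlap each other near Apol7e, 4 RLTR-type ERVK, 3 VL30, 2 RMER, 1 MYSERV and 1 other rodent ERV1 region. The 8 held 3 ETn or ERVB7 regions, 2 of which overlap each other near Olfr1451, and 1 each of 5 other groups.

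Repeat groups differed in how the strain calls were split. Of 99 VL30 regions tested, 7 were higher and 21 lower in BALB/c, of 92 IAP regions 2 and 12, and of 98 MuRRS regions 10 and 21. The MMERVK10C group had 12 higher and 4 lower of 60, and the BGLII and MYSERV group 14 and 6 of 100. The large groups were nearly balanced, with 148 higher and 117 lower of 1400 RLTR-type ERVK regions and 122 and 115 of 1335 RMER regions. MLV and GLN regions had 16 higher and 20 lower of 132. By repeat name, RLTR33 had 11 higher and 1 lower of 49 regions and RMER17C 9 and 1 of 77, while MMVL30-int, the internal part of VL30, had 4 and 16 of 65 and RMER19B 25 and 42 of 282. Over all regions, 6.41% were higher and 7.06% lower in BALB/c. None of these splits was itself tested.

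**Figure D3:**
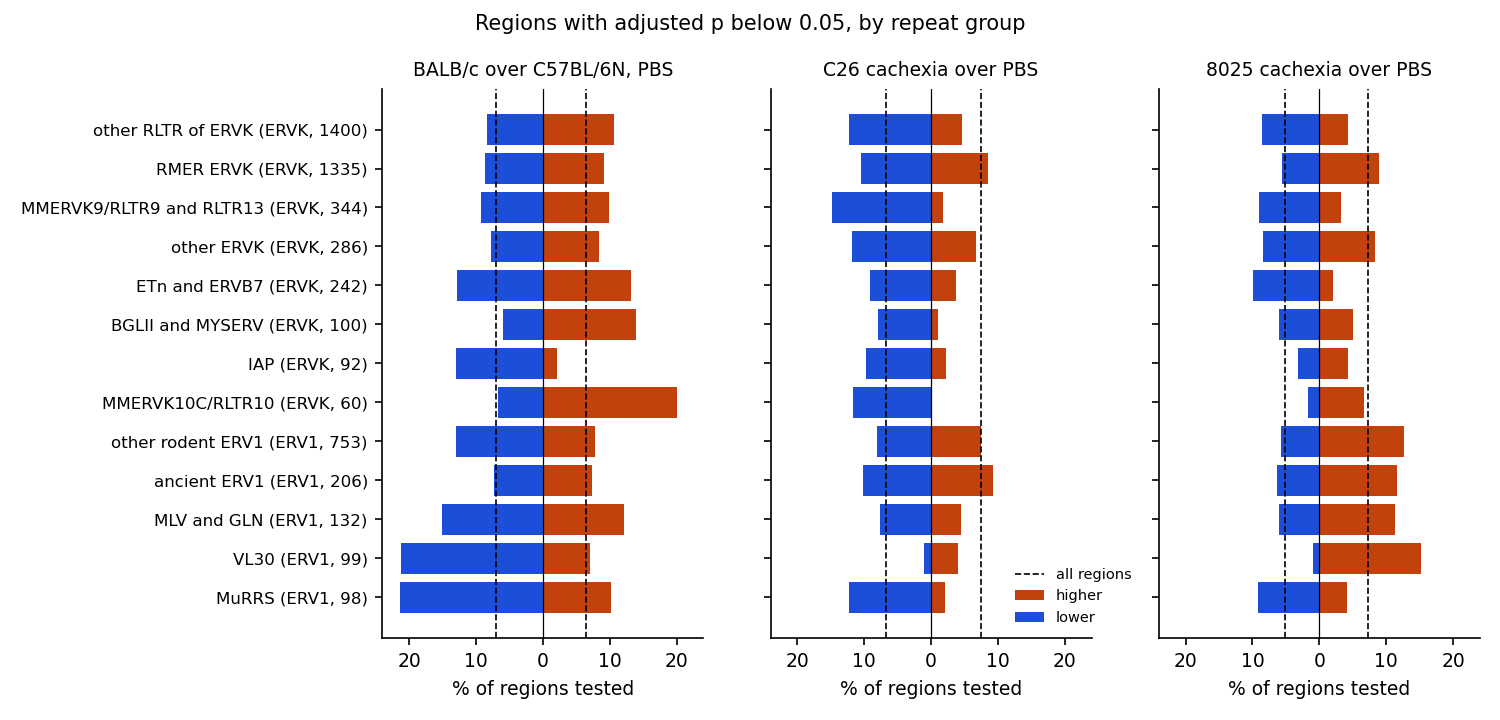
Share of tested regions (% of regions tested, x axis) called higher (red, right of 0) and lower (blue, left of 0) in each repeat group, for the strain difference among PBS animals, C26 cachexia and 8025 cachexia. Dashed lines give the shares over all regions, and row labels the family and number of regions tested. VL30 and MuRRS have the longest bars for regions lower in BALB/c, with 21 regions each, and MMERVK9 and RLTR13 the longest for regions lower in C26 cachexia, with 51.

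The region next to each called region was also examined. The nearest other region of the table was called higher for 32.3% of the ERVK and ERV1 regions higher in BALB/c and called lower for 2.42% of them. For the regions lower in BALB/c, the nearest region was called higher for 4.09% and lower for 28.8%. For regions not called, those shares were 5.90% and 4.95%. By chromosome, 29.6% of the 362 regions on chromosome 4 (41 higher, 66 lower) and 29.1% of the 241 on chromosome 8 (29 higher, 41 lower) were called, against 15.8% and 17.5% of the other regions there. Chromosome 17 had 13.7%, against 15.9% of its other regions. Strong regions were called more often than weak ones, with 25% at a mean of 50 or more, against 16.5% under 5, and the shares for the other regions were 20.1% and 8.85%.

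In C26 cachexia, 301 ERVK and ERV1 regions rose and 547 fell, 16.5% of those tested, beside 14.2% of all regions. Over all regions, 7.44% rose and 6.81% fell. Of the 1514 regions tested in ERVL repeats, 130 rose and 139 fell (17.8% called). Of the 5015 in ERVL-MaLR repeats, 385 rose and 404 fell (15.7%). The median log2 difference was -0.083 over ERVK and ERV1 regions and 0.003 over all regions. The fall lay mainly in ERVK, with 214 higher and 442 lower, against 87 and 105 in ERV1. The share of all region signal that fell into ERVK and ERV1 regions was 1.499% to 1.551% in C26 cachexia livers, against 1.61% to 1.69% in C26 PBS livers, without overlap. In bulk nuclei, fewer open cells and less signal per open cell cannot be told apart. Signal of the groups did not overlap for 383 regions higher and 470 lower in C26 cachexia, 16.6% of those tested, against 15.2% of all regions (8.65% higher and 6.58% lower).

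In 8025 cachexia, 386 regions rose and 358 fell, 14.5% of those tested, beside 12.3% of all regions. Over all regions, 7.25% rose and 5.06% fell. The median log2 difference was -0.041, against 0.002 over all regions. ERV1 had 153 higher and 74 lower, and ERVK 233 and 284. The signal share was 1.57% to 1.70% in 8025 cachexia livers, against 1.63% to 1.71% in 8025 PBS livers, and the groups overlapped. Without 8025 PBS replicate 2, 455 regions were called. Signal did not overlap for 666 regions higher and 588 lower in 8025 cachexia, 24.4% of those tested, against 22.7% of all regions (13.6% higher and 9.17% lower).

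The cachexias share no library, and many of their calls fell on the same repeats. Regions higher in both numbered 143, which is 47.5% of the C26 and 37.0% of the 8025 rises. Regions lower in both numbered 206, which is 37.7% of the C26 and 57.5% of the 8025 falls. Of the regions called in both, 1 had opposite directions. For all other regions the shares were 45.02% and 46.5% of the rises and 36.5% and 48.9% of the falls. The test of the difference between the cachexia effects called 3 regions with a higher and 9 with a lower effect in C26 than in 8025, beside 0.101% of all regions (0.0266% higher and 0.0740% lower). That count was 7 without C26 PBS replicate 2, 8025 cachexia replicate 2 or 8025 cachexia replicate 3, 5 without C26 PBS replicate 4, 4 without 8025 PBS replicate 1, 6 without 8025 PBS replicate 2 and 23 without 8025 cachexia replicate 1.

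**Figure D4:**
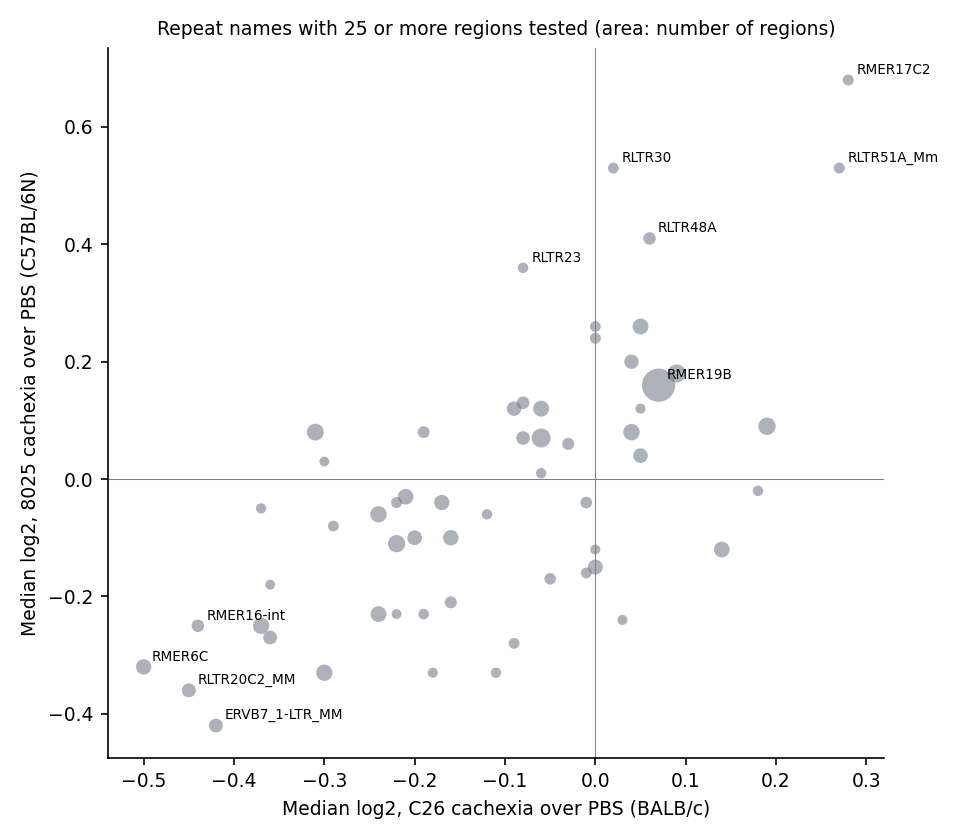
Median log2 difference in C26 cachexia (x axis) and 8025 cachexia (y axis) for each of the 58 repeat names with 25 or more regions tested, with circle area in proportion to the number of regions. RMER17C2 lies at 0.28 and 0.68, RMER6C at -0.50 and -0.32, and ERVB7_1-LTR_MM at -0.42 and -0.42.

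The MMERVK9 and RLTR13, ETn and ERVB7, and RLTR-type ERVK groups each had more regions lower than higher in both cachexias. So did the MuRRS group of ERV1. The BGLII and MYSERV group had more lower than higher in C26 cachexia and nearly equal counts in 8025 cachexia. IAP regions had more lower than higher in C26 cachexia but not in 8025 cachexia. Over all regions, 14.2% were called in C26 cachexia (7.44% higher and 6.81% lower). In 8025 cachexia 12.3% of all regions were called (7.25% higher and 5.06% lower). The MMERVK9 and RLTR13 group had 6 regions higher and 51 lower of 344 in C26 cachexia, and 11 and 31 in 8025 cachexia. Its share of all region signal was 0.0859% to 0.0909% in C26 cachexia livers, against 0.0992% to 0.108% in C26 PBS livers, and 0.0898% to 0.0988% in 8025 cachexia livers, against 0.0998% to 0.109% in 8025 PBS livers. The ETn and ERVB7 group had 9 higher and 22 lower of 242 in C26 cachexia, and 5 and 24 in 8025 cachexia. Its signal share was 0.0741% to 0.0850% in C26 cachexia livers, against 0.0880% to 0.0953% in C26 PBS livers, and 0.0690% to 0.0794% in 8025 cachexia livers, against 0.0891% to 0.0958% in 8025 PBS livers. The groups of libraries did not overlap in any of these 4 pairs. With the weight-stable NC26 tumor the MMERVK9 and RLTR13 share was 0.0923% to 0.103%, against 0.101% to 0.107% in NC26 PBS livers, with overlap. The median log2 difference of that group was -0.15 with the NC26 tumor, 0.08 with the MC38 tumor, -0.19 in C26 and -0.20 in 8025 cachexia. A lower median was thus not particular to cachexia, although 0 of its regions were called with the NC26 tumor. RLTR-type ERVK had 64 higher and 171 lower of 1400 in C26 cachexia, and 60 and 121 in 8025 cachexia. MuRRS regions had 2 higher and 12 lower of 98 in C26 cachexia, and 4 and 9 in 8025 cachexia. The BGLII and MYSERV group had 1 higher and 8 lower of 100 in C26 cachexia, and 5 and 6 in 8025 cachexia. Its shares called, 9% and 11%, were below those of all regions, and its median log2 difference in 8025 cachexia was 0.02. IAP regions had 2 higher and 9 lower of 92 in C26 cachexia, and 4 and 3 in 8025 cachexia.

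Other groups leaned upward or differed between the cachexias in their counts, which was not tested as such. The shares over all regions given above apply to these counts too. VL30 had 15 higher and 1 lower of 99 in 8025 cachexia, and 4 and 1 in C26 cachexia. RMER regions had 113 higher and 140 lower of 1335 in C26 cachexia, and 120 and 74 in 8025 cachexia. MLV and GLN regions had 6 higher and 10 lower of 132 in C26 cachexia, and 15 and 8 in 8025 cachexia. Other rodent ERV1 regions had 56 higher and 61 lower of 753 in C26 cachexia, and 95 and 43 in 8025 cachexia.

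Repeat names within these groups pointed in different directions, and these splits were not tested. Over all regions, 7.44% rose and 6.81% fell in C26 cachexia, and 7.25% rose and 5.06% fell in 8025 cachexia. RMER19B, the most frequent name with 282 regions, had 39 higher and 21 lower in C26 cachexia, and 46 and 14 in 8025 cachexia. RMER19B2 had 0 higher and 13 lower of 76 in C26 cachexia, but 6 and 6 in 8025 cachexia. RMER19C had 6 higher and 17 lower of 68 in C26 cachexia, and 2 and 7 in 8025 cachexia. RLTR51A_Mm had 5 higher and 0 lower of 31 in C26 cachexia, and 6 and 0 in 8025 cachexia. RMER17C had 8 higher and 1 lower of 77 in C26 cachexia, and 8 and 2 in 8025 cachexia. RLTR48A, the LTR at the Gm30843 start printed above, had 7 higher and 3 lower of 40 in C26 cachexia, and 10 and 2 in 8025 cachexia. On the other side, RLTR20C2_MM had 1 higher and 14 lower of 50 in C26 cachexia, and 1 and 10 in 8025 cachexia. RMER6C had 1 higher and 15 lower of 60 in C26 cachexia, and 2 and 4 in 8025 cachexia. RMER16-int had 0 higher and 10 lower of 40 in C26 cachexia, and 0 and 5 in 8025 cachexia.

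Among the regions that rose in both cachexias, the first named is an RLTR19 LTR 4099 bp upstream of Dus2, which encodes a tRNA dihydrouridine synthase (chr8:106007179-106007579, mm10). It had 20.3, 16.2, 38.9 and 46.97 scaled tags in C26 cachexia livers, against 2.56, 5.42, 0.93 and 2.17 in C26 PBS livers (log2 difference 3.07, SE 0.4, adjusted p = 4e-07). It had 69.5, 52.8, 104 and 67.5 in 8025 cachexia livers, against 3.12, 4.23 and 4.12 in 8025 PBS livers (log2 difference 3.87, SE 0.43, adjusted p = 3.9e-08). Every cachexia library was above every PBS library of its cohort, as the choice of regions for both cachexias and for each tumor comparison required. The weight-stable groups were low, with at most 10.8 in NC26 tumor and 6.18 in MC38 tumor livers. The promoter region of Dus2 was not called in either cachexia (log2 difference 0.12 and 0.10, adjusted p = 0.82 and 0.87).

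An RMER19B LTR upstream of Ifi27l2b, a gene of the interferon-inducible Ifi27 family, rose together with the gene's promoter region. It had 16.1, 30.8, 45.4 and 24.7 scaled tags in C26 cachexia livers, against 2.56, 7.01, 8.05 and 3.62 in C26 PBS livers (log2 difference 2.26). It had 58, 43.1, 32 and 44.2 in 8025 cachexia livers, against 3.74, 2.12 and 3.09 in 8025 PBS livers (log2 difference 3.46). The groups did not overlap in either cohort, as the choice of regions required. The promoter region had 18.2 ± 3.85 in C26 cachexia and 3.95 ± 1.87 in C26 PBS (SD, n = 4 each, log2 difference 2.02, adjusted p = 5.3e-05), and 36.5 ± 16.8 in 8025 cachexia and 8.67 ± 4.58 in 8025 PBS (log2 difference 1.94, adjusted p = 0.00034).

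The MLTR18C_MM LTR near BC027072 and the RMER19A LTR annotated to 1700129C05Rik also rose in both. The BC027072 region had 19.01, 15.03, 21.4 and 18.5 in C26 cachexia livers, against 2.99, 4.46, 1.24 and 1.81 in C26 PBS livers, and its log2 differences were 2.49 in C26 and 3.33 in 8025 cachexia. The 1700129C05Rik region had log2 differences of 2.47 and 2.74. Neither region overlapped between cachexia and PBS libraries of its cohort, which was also a condition of the choice.

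At the Gm30843 start, the RLTR48A region that covers the printed window averaged 45.6 ± 10.4 in C26 cachexia and 11.9 ± 0.883 in C26 PBS (SD, n = 4 each, log2 difference 1.80, SE 0.28, adjusted p = 1e-05). It averaged 57.4 ± 24 in 8025 cachexia (n = 4) and 13.5 ± 8.69 in 8025 PBS (SD, n = 3, log2 difference 2.07, SE 0.3, adjusted p = 5e-06). This window holds TATAAA, 2 CCAAT boxes and an AP-1 motif. The overlapping IAP-d-int regions at the Gm34653 start rose by log2 differences of 1.20 and 1.27 in C26 cachexia, and of 1.60 and 1.55 in 8025 cachexia, although IAP regions as a group had more falls in C26 cachexia. The RLTR20C1_MM region at the Gm39760 start, whose window holds 5 CCAAT matches, fell by 0.69 in C26 cachexia and by 0.71 in 8025 cachexia on the log2 scale (adjusted p = 0.026 and 0.039). The strain windows printed above behaved otherwise. The H3f3c region averaged 13.6 ± 3.74 in BALB/c PBS and 3.81 ± 2.36 in C57BL/6N PBS livers (SD, log2 difference 2.09), and the Gm30536 region 19.3 ± 5.91 and 54.7 ± 10.8 (log2 difference -1.44), and neither was called in a cachexia.

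Of the regions that fell in both cachexias, the internal fragment MurERV4_19-int downstream of Nolc1, a nucleolar chaperone gene, is given first (chr19:46099603-46100003, mm10). It had 3.70, 0, 0.65 and 3.43 scaled tags in C26 cachexia livers, against 20.7, 31.2, 31.6 and 22.8 in C26 PBS livers (log2 difference -3.55). It had 0, 2.91, 0.84 and 1.75 in 8025 cachexia livers, against 10.9, 17.6 and 11.3 in 8025 PBS livers (log2 difference -2.73). No cachexia library reached the lowest PBS library of its cohort, as the choice of regions required. The Nolc1 promoter region went the other way in C26 cachexia, by a log2 difference of 0.25 (adjusted p = 0.049), and was not called in 8025 cachexia (0.05, adjusted p = 0.8).

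An RLTR13E LTR annotated to Sult2a8, a liver gene for the sulfation of bile acids, fell together with the promoter region. The LTR had 1.58, 1.58, 2.92 and 0.69 in C26 cachexia livers, against 10.3, 14.0, 20.4 and 25.7 in C26 PBS livers (log2 difference -2.83). It had 3.25, 1.94, 0.84 and 1.16 in 8025 cachexia livers, against 15.9, 16.2 and 10.8 in 8025 PBS livers (log2 difference -2.53). The groups did not overlap, as the choice of regions required. The promoter region had 4.24 ± 2.78 in C26 cachexia and 28.04 ± 6.56 in C26 PBS (log2 difference -2.63, adjusted p = 1.6e-06), and 3.66 ± 3.43 in 8025 cachexia and 26.2 ± 8.44 in 8025 PBS (log2 difference -2.77, adjusted p = 4e-06).

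An ETnERV-int fragment in an intron of Kdm5d, the Y-linked H3K4 demethylase gene, fell by 2.31 in C26 and by 2.08 in 8025 cachexia on the log2 scale. An RLTR19 LTR upstream of Tdrd3 fell by 2.34 and by 2.0. The Tdrd3 region also differed between the strains, with 71.6 ± 17.5 in BALB/c PBS and 9.26 ± 3.44 in C57BL/6N PBS livers (SD, log2 difference 3.17). It had 21.1, 5.54, 20.7 and 11.3 in C26 cachexia livers, against 58.3, 56.7, 90.4 and 72.8 in C26 PBS livers. It had 1.18, 0.97, 0.84 and 1.75 in 8025 cachexia livers, against 4.99, 6.35 and 13.4 in 8025 PBS livers. Cachexia and PBS libraries were apart within each strain, as the choice of regions required. The PBS level was high in BALB/c and low in C57BL/6N.

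**Figure D5:**
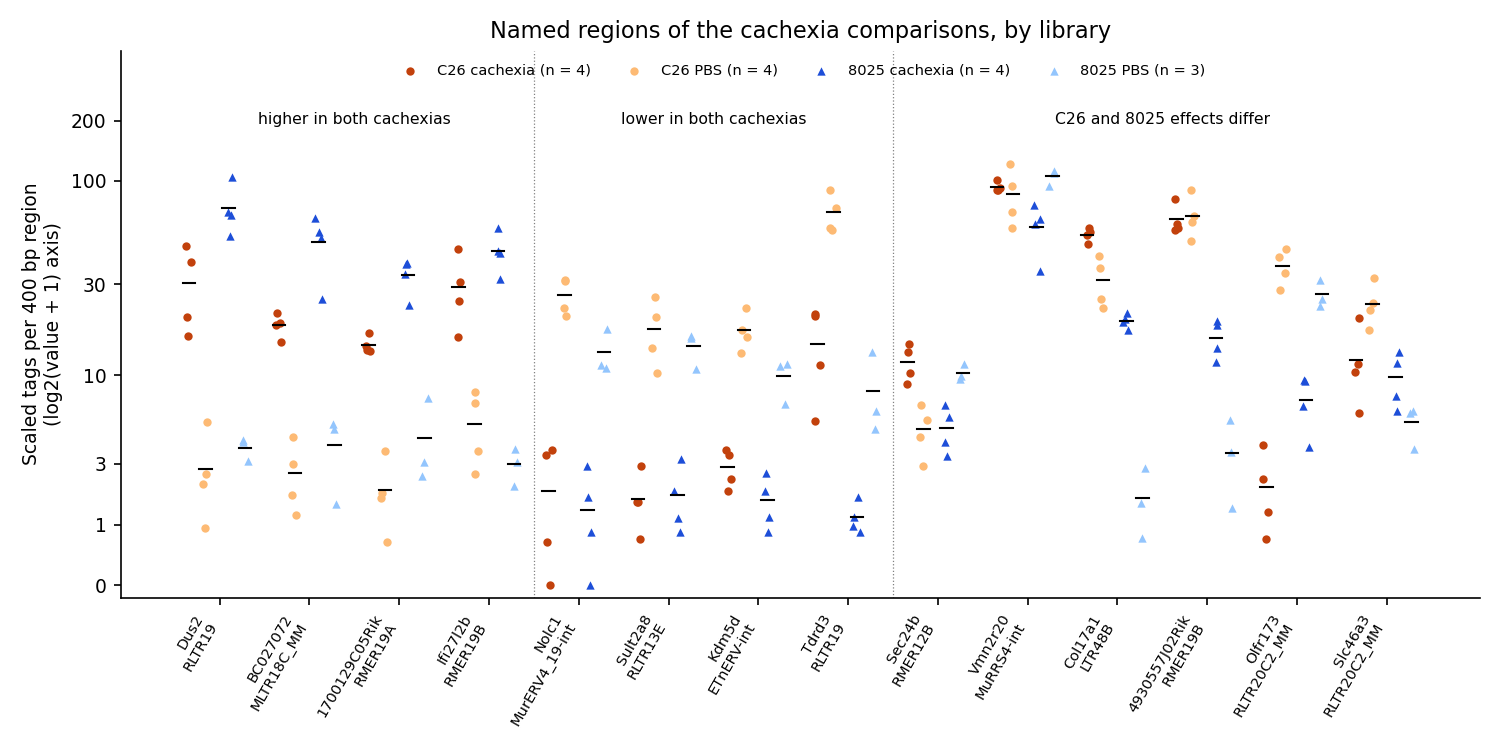
Scaled tags per 400 bp region (log2(value + 1) axis) in single libraries of the C26 cohort (circles) and the 8025 cohort (triangles), with each cachexia group (dark) left of its PBS group (light) and black lines at the group means. The dotted lines part 4 regions higher in both cachexias, 4 lower in both, and 6 whose C26 and 8025 effects differed. In the first 8 no cachexia library overlaps the PBS libraries of its cohort, as the choice of regions required.

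Of the other named changes in C26 cachexia, an LTR31 LTR downstream of Pfkfb3, which encodes a regulator of glycolysis, had 76.0, 51.4, 82.0 and 88.8 scaled tags in cachexia livers, against 9.39, 10.2, 7.43 and 22.1 in C26 PBS livers (log2 difference 2.56, adjusted p = 8.3e-05). In 8025 cachexia its log2 difference was 1.23 (adjusted p = 0.073). An RLTR30E_MM LTR annotated to Col11a1 had a log2 difference of 2.56 in C26 cachexia. An RLTR20C2_MM LTR near the olfactory receptor gene Olfr173 had 2.38, 3.95, 1.30 and 0.69 in C26 cachexia livers, against 34.4, 45.3, 41.2 and 28.3 in C26 PBS livers (17.9-fold lower, log2 difference -3.79). Regions annotated to 4930596D02Rik (RLTR48A), Cplx1 (MLTR11B) and Lrrc4c (RLTR11C_MM) fell by 3.14, 3.02 and 2.88 on the log2 scale.

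In 8025 cachexia, an RMER19B LTR near Pcdh1, a protocadherin gene, rose by a log2 difference of 2.97, and it rose by 2.22 in C26 cachexia. The LTR48B LTR near Col17a1, low in C57BL/6N PBS livers, had 19.5 ± 1.59 in 8025 cachexia (n = 4) and 1.70 ± 1.07 in 8025 PBS livers (SD, n = 3, log2 difference 2.96). In BALB/c it had 53.7 ± 4.03 in C26 cachexia and 31.6 ± 9.19 in C26 PBS livers (SD, n = 4 each, log2 difference 0.75), and the difference between the cachexia effects was called (-2.21, SE 0.38, adjusted p = 0.0051). The RMER19B region annotated to 4930557J02Rik was similar, with 15.9 ± 3.59 in 8025 cachexia and 3.54 ± 2.10 in 8025 PBS, and 64.2 ± 11.3 in C26 cachexia and 67.0 ± 16.8 in C26 PBS (difference between the effects -2.03, adjusted p = 0.001). An RLTR44A LTR in intron 1 of Aox1, the aldehyde oxidase gene of the liver, had 6.80, 3.15, 5.47 and 3.49 in 8025 cachexia livers, against 23.4, 39.5 and 33.2 in 8025 PBS livers (log2 difference -2.57), and it fell by 1.90 in C26 cachexia. The regions annotated to Abhd6 (RMER4A) and Crybg3 (RLTR31D_MM) fell by 2.38 and 2.33. The Crybg3 region was another strain difference, with 12.4 ± 4.99 in BALB/c PBS and 73.4 ± 14.6 in C57BL/6N PBS livers.

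In C26 pre-cachexia, 54 regions rose and 26 fell, 1.55% of those tested, beside 1.31% of all regions (1.05% higher and 0.264% lower). The count was 38 without C26 PBS replicate 1, 51 without C26 PBS replicate 2 or 3 and 45 without C26 pre-cachexia replicate 1. With library totals in place of TMM scaling, 66 rose and 7 fell. The Pfkfb3 LTR31 region had 67.5, 60.3, 68.6 and 44.8 scaled tags in pre-cachexia livers, against 9.39, 10.2, 7.43 and 22.1 in C26 PBS livers (log2 difference 2.22, adjusted p = 0.0045). The Col11a1 and BC027072 regions had log2 differences of 2.35 and 2.16. The RLTRETN_Mm LTR in an intron of Spon1 had 22.8, 23.3, 31.9 and 16.5 in pre-cachexia livers, against 4.48, 2.87, 4.95 and 9.06 in C26 PBS livers (log2 difference 1.93). NC26 PBS livers, also BALB/c, had 18.25, 17.84, 6.48 and 6.67 there, and so overlapped pre-cachexia. C26 PBS was below NC26 PBS at Spon1 (log2 difference -1.19, SE 0.34, adjusted p = 0.72). The MLTR14 LTR near Lyrm9 had 25.7, 25.7, 76.2 and 39.7 in pre-cachexia livers, against 2.99, 7.65, 6.19 and 9.42 in C26 PBS livers (log2 difference 2.37, adjusted p = 0.038). Among the falls, the RMER6A LTR in an intron of Cdc14a had a log2 difference of -1.64, the MurERV4-int fragment near Ptp4a1 -1.39 and the RLTR13D3A1 LTR in an intron of Mpp4 -1.31. The Platr10 (RMER19C) and Khdc1a (MMERVK9E_I-int) regions had -1.29 and -1.20. The calls at Lyrm9, Khdc1a, Platr10, Cdc14a and Col11a1 were lost without some libraries. The pre-cachexia and cachexia groups share their PBS libraries. C26 PBS minus NC26 PBS was -0.85 at Pfkfb3, -0.71 at Col11a1, -0.93 at Lyrm9, -0.05 at BC027072 and 0.93 at Cdc14a on the log2 scale, none of them called.

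Few of these repeats were called with the weight-stable tumors. With the NC26 tumor, 4 regions rose and 2 fell, beside 0.176% of all regions (0.136% higher and 0.0401% lower), and the count was 37 without NC26 tumor replicate 2 and 14 without NC26 tumor replicate 3. An RLTR30 LTR upstream of Atg4c, which encodes an autophagy protease, had 23.02, 7.28, 10.1 and 7.96 scaled tags in NC26 tumor livers, against 1.66, 2.80, 2.03 and 0.91 in NC26 PBS livers (log2 difference 2.0, SE 0.29, adjusted p = 0.00024). The groups did not overlap, as the choice of regions required. The highest value was from the library of 3.47 M tags, without which the log2 difference was 1.68 (adjusted p = 0.007). The Pcdh1 RMER19B region had 5.76, 5.14, 15.5 and 7.64 in NC26 tumor livers, against 2.49, 2.80, 0 and 1.82 in NC26 PBS livers (log2 difference 1.76, adjusted p = 0.049). That call was lost without 7 of the 8 libraries in turn, all but NC26 tumor replicate 2, and in edgeR (adjusted p = 0.16). With the MC38 tumor 0 regions were called (362 at an unadjusted p below 0.05, 0 by edgeR and 4 by DESeq2), beside 0.0186% of all regions (0.0181% higher and 0.000565% lower), and 2 were called without MC38 PBS replicate 1.

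Regions at the start of genes that silence or restrict retroviruses were counted against the share called over all regions. Of 44 gene symbols in the list, 38 had a region within 1 kb of the start. Tasor and Fam208a are symbols of 1 gene, whose region was found under Fam208a. In C26 cachexia, 4 rose and 0 fell, namely Setdb1, the H3K9 methyltransferase of the KAP1 complex (log2 difference 0.49, adjusted p = 0.011), Suv39h1, another H3K9 methyltransferase (0.28, adjusted p = 0.026), Daxx, a histone H3.3 chaperone (0.35, adjusted p = 0.0034), and Fv1, a capsid restriction factor (1.04, adjusted p = 0.00065). The median of the 38 was 0.08. Over all regions, 14.2% were called in C26 cachexia (7.44% higher and 6.81% lower), so that 4 of 38 is near the share of the table. In 8025 cachexia 0 of 38 were called, against 12.3% of all regions, with values of 0.33 for Setdb1 and 0.63 for Fv1 (adjusted p = 0.15 and 0.074), and the difference between the cachexias was not called for any of the 38. Between the strains in PBS 3 of 38 were called, against 13.5% of all regions. Zfp932, a KRAB zinc finger gene, was higher in BALB/c PBS livers (2.34, adjusted p = 0.0001), and Trim5 (-1.71, adjusted p = 8e-05) and Chaf1a (-0.35, adjusted p = 0.011) were lower. The Trim5 region lay near the floor, with a mean of 1.18 scaled tags over all libraries. The Zfp932 region was not called between the tumor groups (0.31, adjusted p = 0.76) and was higher with the MC38 tumor (2.73, SE 0.5, adjusted p = 0.044), where 0.0186% of all regions were called. At that region the PBS livers of the 8025 cohort were above those of the MC38 cohort by a log2 difference of 2.62 (SE 0.57, adjusted p = 0.53), which is above the strain difference and just under the MC38 difference. Trim28, whose product is KAP1, had log2 differences of 0.12 in C26 cachexia and -0.16 in 8025 cachexia (adjusted p = 0.58 and 0.47).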

How the data were processed

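ATAC-seq was run on bead-bound hepatocyte nuclei and sequenced as read pairs, per the labels' protocols. The deposited signal values are tag counts per 400 bp region of a merged peak table, which the authors brought to a library size of 10 M tags. BWA 0.7.5a-r405, SAMtools, HOMER and the mm10 build are named in the submitters' processing notes. How duplicate and multiply mapped reads were treated, and how peaks were called, is not stated in the labels used here. Multiplied by library totals, 100% of the values came out as whole read ends within 0.05, so that 1 read end is 0.5 tag. All 35 value columns were used.

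Values were divided by TMM factors, transformed as log2(value + 1) and tested with limma-trend (limma 3.58.1, edgeR 4.0.16, R 4.3.3) with robust variance moderation, over all 9 groups with library series as a term. Regions were kept by edgeR's filter (minimum count 10, minimum total 15). The p-values were adjusted by Benjamini-Hochberg over all regions. Count tests on the recovered read ends (edgeR quasi-likelihood and DESeq2 1.42.0) were alternatives. With edgeR, 987 ERVK and ERV1 regions were called between the strains in PBS, 837 in C26 cachexia and 857 in 8025 cachexia. Tables and figures were made with Python 3.11.15, pandas 2.3.3, numpy 2.4.6 and matplotlib 3.10.9.

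The regions, gene lists and repeat groups were chosen with earlier results of these data known, and the name pattern of the MLV and GLN group was corrected after group counts had been seen. Named regions were the 8 largest called changes per direction for the strains, 5 for each tumor comparison and for C26 minus 8025, up to 4 for both cachexias by the smaller change, and the 6 highest levels, with 1 per nearest gene and per 10 kb. All but the levels had a mean of at least the median of 7.59 scaled tags. All but the levels and C26 minus 8025 also had no overlap between the libraries of the groups compared. The nearest gene is the annotation of the table and implies no link. Each library has its own animal in the labels.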

Additional observations from a re-analysis of the deposited data

Results flagged for a closer look

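A library apart from the others was sought in 98 groups, at named regions and for the share of signal in ERVK and ERV1 regions. Such a library was found in 4, all at named regions, and chance gives about 1 in 20. At the RLTR40 region near Erdr1, 8025 PBS replicate 1 had 1.87 scaled tags, against 0 to 0.71 in the other C57BL/6N PBS libraries. At the ERVB7_1-LTR_MM region annotated to Scgb2b21, C26 PBS replicate 2 had 31.9, against 11.1 to 19.1 in the other BALB/c PBS libraries, and 8025 PBS replicate 2 had 3.53, against 0 to 1.30 in the other C57BL/6N PBS libraries. At the RMER6B region of Pak6, 8025 PBS replicate 1 had 4.36, against 0.63 to 2.06.

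At 6 named regions the effect of C26 cachexia differed from that of 8025 cachexia in limma's test of the difference. The log2 effect in C26 was higher by 2.08 at the RMER12B region in Sec24b (adjusted p = 0.024) and by 1.05 at the MuRRS4-int region in Vmn2r20 (adjusted p = 0.024). The difference was -2.21 at the Col17a1 LTR48B region (adjusted p = 0.0051), -2.03 at the 4930557J02Rik RMER19B region (adjusted p = 0.001), -1.97 at the Olfr173 RLTR20C2_MM region (adjusted p = 0.014) and -1.73 at the Slc46a3 RLTR20C2_MM region (adjusted p = 0.046). The Sec24b region had 14.8, 10.3, 13.3 and 8.91 scaled tags in C26 cachexia livers, against 6.83, 4.46, 5.57 and 2.90 in C26 PBS livers. The call at the Slc46a3 region was lost under 16 of 26 alternatives, among them library totals, edgeR, the replicate block and leaving out single libraries (adjusted p 0.013 to 0.16 over the 26). It was lost under 8 at the Sec24b region, 6 at Vmn2r20 and 2 at Olfr173, in each case with library totals (adjusted p = 0.061, 0.19 and 0.07) and without 8025 PBS replicate 1. The Col17a1 and 4930557J02Rik calls held under all 26. Strain and tumor line cannot be told apart in these differences.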

How the results depend on the processing

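No count of calls is free of the filter, the libraries and the tool, and the counts below are of ERVK and ERV1 regions. With a mean of 10 scaled tags or more, 489 regions were called for the strains in PBS, 446 for the strains with tumors, 547 in C26 cachexia and 417 in 8025 cachexia, where fewer regions were tested. Library series A alone gave 457 and 406 for the strains in PBS and with tumors, and series B alone 562 and 510, with fewer libraries. Without regions that overlap another one, counts were 587 (strains with tumors), 550 (C26 cachexia), 46 (pre-cachexia), 460 (8025 cachexia), 3 (NC26 tumor) and 4 (C26 minus 8025), and the share of signal was 0.984% in place of 1.64%. A fit of only the groups compared gave 522 for the strains with tumors, 145 in pre-cachexia, 0 with NC26, 20 for C26 minus 8025, 2 between the BALB/c and 1 between the C57BL/6N PBS cohorts. DESeq2 gave 160 in pre-cachexia, 10 with NC26, 4 with MC38, 37 for C26 minus 8025 and 1 between the C57BL/6N PBS cohorts. Library totals gave 5 and a pseudocount of 5 gave 35 for C26 minus 8025, and a pseudocount of 5 gave 1 with MC38. The causes were not tested.

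Leaving out 1 library at a time gave 860 to 1005 for the strains in PBS, 755 to 980 with tumors, 641 to 793 in C26 cachexia, 38 to 114 in pre-cachexia, 455 to 669 in 8025 cachexia, 4 to 37 with NC26, 0 to 2 with MC38, 4 to 23 for C26 minus 8025 and 0 within either strain. Same-numbered libraries did not deviate together (correlations -0.193 to 0.071), and a replicate block gave 816, 899, 820, 72, 674, 5, 1 and 9 in the same order of comparisons, leaving out those within a strain. Of 77 named results, 13 lost their call under some alternative, in 63 of 1713 values, and 0 reversed.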
